A study of Homo sapiens with 6 samples.

Results

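The 7 genes ANKRD22, GASK1B, TCIM, GLIPR1, BBOX1, OLR1 and ADGRF4 are comparatively little-studied genes whose mRNA was strongly induced in ONS-76 cells after knockdown of KDM1A. They were chosen by their values on these arrays, as genes with at least 1 probe set more than 3-fold higher after knockdown than in the control, so that rise is described here and not tested. They are 7 of the 19775 genes that a probe set of the array names alone, and 14 of its 54613 probe sets. A probe set is a group of short probes for 1 transcript or a few related transcripts.

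ONS-76 cells, an established line from a human medulloblastoma (a cerebellar tumour of childhood), were profiled on 6 Affymetrix U133 Plus 2.0 expression arrays. All cells were the same line, and the only treatment was the transfection. The siKDM1A group holds 3 arrays (a, b and c), which the methods describe as separate transfections, of cells that received 1 siRNA against KDM1A, and the control group holds 3 arrays of cells that received transfection reagent without siRNA. The sample labels write KDM5A/LSD1 for the target (LSD1 is a synonym of KDM1A and not of KDM5A) and give a harvest at 48 h, whereas the text of the study names KDM1A and a later time. Because the control received no siRNA, loss of KDM1A and delivery of an siRNA cannot be told apart. The number of arrays, 3 in each group, limits the precision of every value below.

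KDM1A removes methyl groups from histone tails and acts as part of large corepressor complexes such as CoREST. The 7 genes do not form a pathway. TCIM encodes a small, largely unstructured protein that binds the beta-catenin antagonist Chibby, and ANKRD22 encodes a short protein with ankyrin repeats. GASK1B encodes a Golgi-associated kinase-like protein, and GLIPR1 a membrane protein of the CAP superfamily that was first cloned from glioma. OLR1 encodes LOX-1, a C-type lectin-like scavenger receptor for oxidized LDL best known from endothelial cells and macrophages, and ADGRF4 an orphan adhesion G protein-coupled receptor. BBOX1 encodes gamma-butyrobetaine hydroxylase, which catalyses the last step of carnitine synthesis.

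Promoter sequences were at hand for 4 of the 7 genes (ANKRD22, GASK1B, BBOX1 and ADGRF4), with 6 start sites among them. The 3 windows below are shown because they hold the motif bound by AP-1 (JUN and FOS) dimers. A part of AP-1 in the rise of these genes was not tested. Each is the 250 bases upstream of a RefSeq start site in GRCh38.p14, read 5′ to 3′ on the strand of the gene, with the AP-1 motif in capitals. The ANKRD22 window lies on the minus strand at chr10:88851845-88852094, the ADGRF4 window on the plus strand at chr6:47698330-47698579, and the BBOX1 window on the plus strand at chr11:27040565-27040814.
ANKRD22: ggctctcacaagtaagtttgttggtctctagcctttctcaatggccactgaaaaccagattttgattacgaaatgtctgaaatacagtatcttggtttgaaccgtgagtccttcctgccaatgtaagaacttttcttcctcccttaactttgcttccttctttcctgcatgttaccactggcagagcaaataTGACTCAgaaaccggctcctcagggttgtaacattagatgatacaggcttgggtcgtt
ADGRF4: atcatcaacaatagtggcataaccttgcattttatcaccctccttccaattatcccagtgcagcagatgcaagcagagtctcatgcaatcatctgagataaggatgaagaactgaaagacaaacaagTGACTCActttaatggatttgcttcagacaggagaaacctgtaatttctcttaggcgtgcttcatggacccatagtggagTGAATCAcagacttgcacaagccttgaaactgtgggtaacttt
BBOX1: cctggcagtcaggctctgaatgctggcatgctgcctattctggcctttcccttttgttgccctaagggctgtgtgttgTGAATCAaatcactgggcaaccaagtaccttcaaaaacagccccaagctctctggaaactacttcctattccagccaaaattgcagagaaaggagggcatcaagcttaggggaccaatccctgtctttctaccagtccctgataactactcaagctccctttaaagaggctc

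The motif searched was TGANTCA, a spelling that covers the same set of words on both strands. In ANKRD22 the match was TGACTCA, 58 bases before the start. ADGRF4 held TGACTCA 123 bases and TGAATCA 43 bases before the start, and BBOX1 held TGAATCA 172 bases before it. The AP-1 motif thus occurred in 3 of the 6 windows of these genes, and in 6.57% of all 35116 windows of the same length. The narrower word TGACTCA, looked at after these matches had been seen, was in 2 of the 6 windows and in 4.20% of all windows. These are matches of letters and not measured binding sites.

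The same windows were searched on both strands for the cAMP response element TGACGTCA, which does not overlap TGANTCA in spelling, for the TEAD motif GGAATG, for TATAAA, and for the NF-kB and CArG motifs. The second BBOX1 window held GGAATG 107 bases and TATAAA, on the opposite strand, 29 bases before its start. Both GASK1B windows held none of the 6 motifs. The cAMP response element, the NF-kB motif and the CArG motif were in none of the 6 windows. Of all windows, 1.65% held the cAMP response element, 11.9% the TEAD motif, 10.7% TATAAA, 5.21% the NF-kB motif and 1.16% the CArG motif. The 3 windows shown had GC contents of 43.2% (ANKRD22), 42.0% (ADGRF4) and 49.2% (BBOX1), against a median of 58.0% over all windows. The second BBOX1 window had 43.6%, and the GASK1B windows 45.6% and 32.4%. The shares over all windows were not matched for GC content, so they are not a like comparison for these windows.

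The targeted gene was measured first. KDM1A read 9.50, 9.57 and 9.49 in the controls and 6.25, 6.34 and 6.31 after siRNA (log2), a difference of -3.22 (limma adjusted p = 7.1e-07). By the same test, 1193 (2.18%) of the 54613 probe sets passed as higher after knockdown and 2037 (3.73%) as lower. Array medians lay between 5.09 and 5.16, lower quartiles between 3.63 and 3.70 and upper quartiles between 7.05 and 7.16, so no array stood apart in its distribution, which the normalization sets. All values are log2 expression values from robust multi-array averaging (RMA), on which a difference of 1 is a 2-fold change. No detection call was made, and a low RMA value can be background.

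The 7 genes were each represented by 1 to 5 probe sets. Of the 14 probe sets, 9 were more than 3-fold higher in siKDM1A, as were 57 (0.104%) of all probe sets, and this is the contrast that chose the genes. In 14 of 14, every siKDM1A array was above every control array, which was so for 6073 (11.1%) of all probe sets. The median log2 difference of the 14 was 1.72, and that of all probe sets 0.01. ANKRD22 was the only gene with several probe sets of which each was over 3-fold. GASK1B, GLIPR1 and ADGRF4 each had at least 1 probe set under that threshold. Only 5 of the 7 genes were over 3-fold on their brightest probe set.

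**Figure D1:**
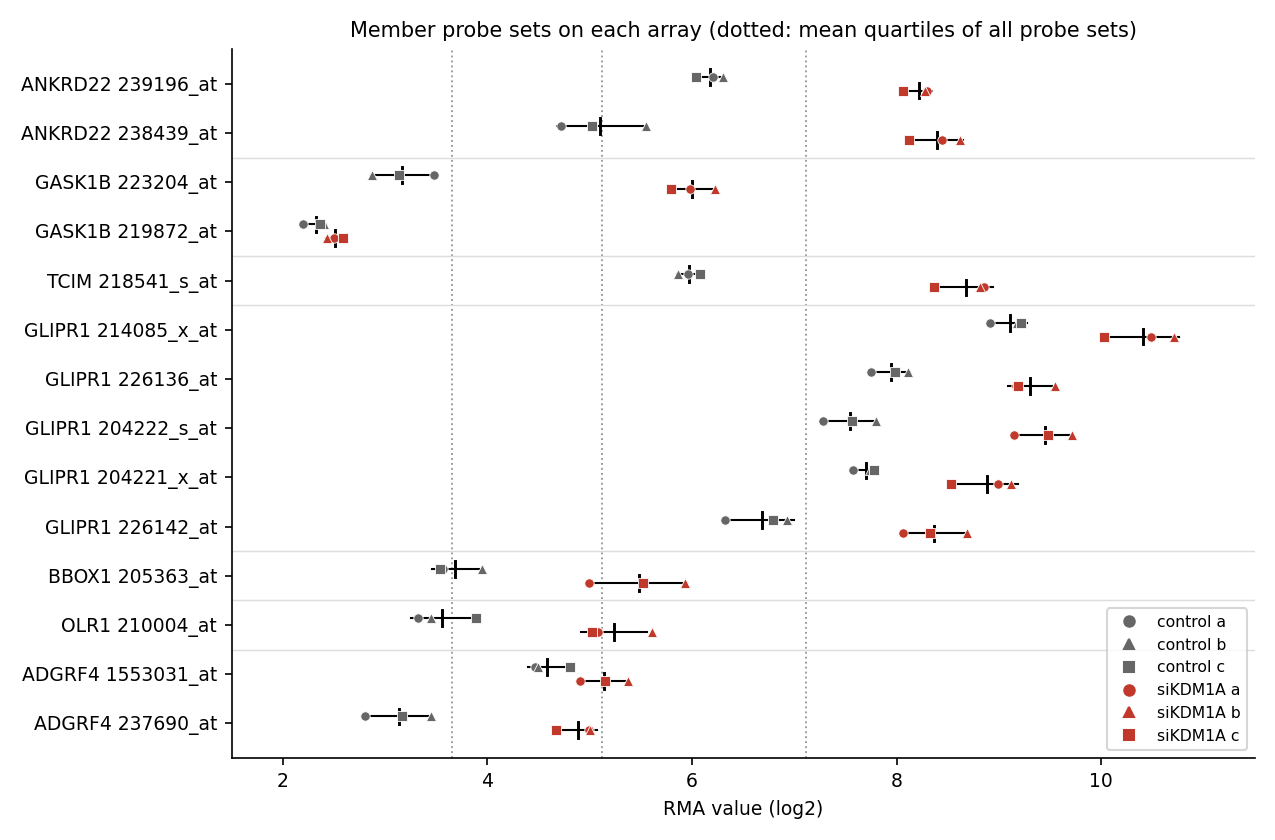
RMA value (log2) of each of the 14 probe sets on the 3 control arrays (grey) and the 3 siKDM1A arrays (red), with the replicate letter given by the marker shape. Vertical ticks are group means, horizontal lines are ± 1 SD (n = 3), and dotted lines are the lower quartile, median and upper quartile of all probe sets averaged over the arrays; in each row the red points lie to the right of the grey ones, widely for ANKRD22 and TCIM and narrowly for GASK1B 219872_at and ADGRF4 1553031_at.

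Among the regulators, TCIM read 5.96, 5.86 and 6.08 in controls a, b and c, and 8.85, 8.81 and 8.36 in siKDM1A a, b and c on its single probe set. All siKDM1A values were above the upper quartile of their arrays, and the lowest of them was 2.28 above the highest control. The means were 5.97 ± 0.11 and 8.67 ± 0.27 (SD, n = 3), a log2 difference of 2.70 or 6.51-fold. The suffix of its probe set, _s_at, marks probes that may match more than 1 transcript.

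ANKRD22 had the probe set with the highest rise on the array, rank 1 of 54613. That probe set, 238439_at, read 4.72, 5.55 and 5.02 in the controls and 8.44, 8.62 and 8.12 in siKDM1A. Its control arrays spanned more than its siKDM1A arrays (SD 0.42 against 0.26), and the groups were 2.57 apart at their nearest. The difference was 3.30, or 9.83-fold. The second probe set, 239196_at, read 6.20, 6.30 and 6.04 in the controls and 8.30, 8.28 and 8.06 in siKDM1A, a difference of 2.04 or 4.10-fold. Its groups were 1.76 apart at their nearest, and the difference was 1.26 smaller on the log2 scale, so the size of the ANKRD22 difference depended on the probe set while its direction did not.

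GASK1B was more than 3-fold higher on 1 of its 2 probe sets. On 223204_at the controls read 3.48, 2.87 and 3.14 and the siKDM1A arrays 5.98, 6.22 and 5.79. The controls were all below the lower quartile of their arrays and the siKDM1A arrays all above the median, with a difference of 2.84 or 7.14-fold (control SD 0.30, siKDM1A SD 0.21). On 219872_at the controls read 2.20, 2.40 and 2.36 and the siKDM1A arrays 2.50, 2.43 and 2.59. Both groups stayed below the lower quartile there, 0.03 apart at their nearest, and the difference was 0.19 or 1.14-fold. The probe sets thus differed by 2.65 in log2 difference, the widest gap among the 4 genes with several probe sets.

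GLIPR1, with 5 probe sets, lay highest in the signal range among the 7. The most changed probe set, 204222_s_at, read 7.28, 7.80 and 7.56 in the controls and 9.15, 9.71 and 9.48 in siKDM1A. Control a was the lowest of its group and siKDM1A b the highest of its group, and the difference was 1.90 or 3.74-fold. The brightest probe set, 214085_x_at, read 8.91, 9.18 and 9.22 against 10.49, 10.71 and 10.03, a difference of 1.31 or 2.48-fold. Its controls already lay above the upper quartile, at the 90.2 percentile of all probe sets. The other differences were 1.68 (226142_at, 3.20-fold), 1.35 (226136_at, 2.56-fold) and 1.19 (204221_x_at, 2.27-fold). All 5 were more than 2-fold higher, within 0.72 of one another, and 2 of 5 passed 3-fold. Of these probe sets, 3 carry the suffixes _x_at or _s_at and can match related transcripts.

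OLR1 read 3.32, 3.45 and 3.89 in the controls and 5.08, 5.61 and 5.02 in siKDM1A on its single probe set. The control values lay near or below the lower quartile of their arrays and the siKDM1A values around the median. The means were 3.55 ± 0.30 and 5.24 ± 0.32, a difference of 1.69 or 3.22-fold.

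ADGRF4 was measured by 2 probe sets that gave different sizes. On 237690_at the controls read 2.80, 3.45 and 3.16 and the siKDM1A arrays 4.99, 5.00 and 4.67. The groups were 1.22 apart, but each siKDM1A value was still below the median of its array, and the difference was 1.75 or 3.37-fold. On the brighter 1553031_at the controls read 4.46, 4.49 and 4.81 and the siKDM1A arrays 4.90, 5.37 and 5.15. Here control c came within 0.09 of siKDM1A a, and the difference was 0.55 or 1.47-fold. The 3-fold rise of ADGRF4 therefore rested on its dimmer probe set.

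BBOX1 read 3.57, 3.95 and 3.54 in the controls and 4.99, 5.93 and 5.52 in siKDM1A. Of the 7 genes' most changed probe sets, its siKDM1A arrays varied most, with an SD of 0.47. The means were 3.69 ± 0.23 and 5.48 ± 0.47, a difference of 1.80 or 3.47-fold. BBOX1-AS1, a transcript antisense to BBOX1 that was looked at after the values of BBOX1 had been seen, read 4.17, 3.85 and 4.21 in the controls and 4.04, 3.78 and 4.01 in siKDM1A. The groups overlapped, and its difference of -0.13 did not pass (limma adjusted p = 0.62).

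**Figure D2:**
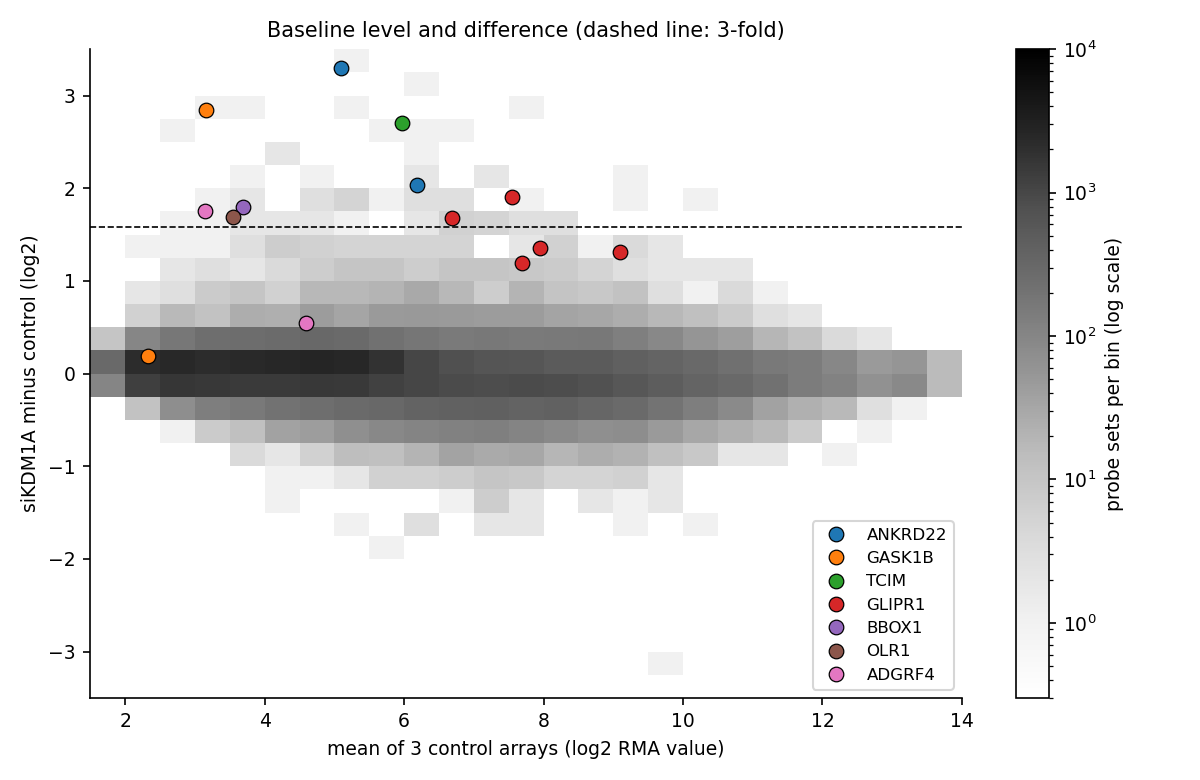
Mean of the 3 control arrays (log2 RMA value) against the siKDM1A minus control difference (log2) for the 14 probe sets of the 7 genes (coloured points), over the number of probe sets per bin for the whole array (grey, log scale). The dashed line is 3-fold; 9 points lie above it, at control levels from far below the array median (ADGRF4, GASK1B) to well above the array median (GLIPR1), and the 2 lowest points are GASK1B 219872_at and ADGRF4 1553031_at.

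In the controls the genes fell into different parts of the signal range. These are positions among signals and not amounts of RNA, since probe sets differ in brightness. GASK1B and ADGRF4 on their most changed probe sets lay at the 17.7 and 17.2 percentile, OLR1 at the 23.6 and BBOX1 at the 25.7 percentile. By contrast, ANKRD22 lay at the 49.9 and 65.9 percentile on its 2 probe sets, TCIM at the 63.5 percentile, and GLIPR1 between the 70.8 and 90.2 percentile. In siKDM1A, 8 of the 14 probe sets were above the upper quartile on every array, and these were those of ANKRD22, TCIM and GLIPR1. GASK1B, OLR1, BBOX1 and ADGRF4 had control signals at which background cannot be told from expression without a detection call.

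Replicate spread was larger in these genes than in the array as a whole, with a median pooled SD of 0.26 against 0.13. The array siKDM1A b was the highest siKDM1A array in 11 of 14 probe sets (78.6%), against 31.9% of all probe sets. Control a was the lowest control in 10 of 14 (71.4%), against 35.8% of all. The median deviation from the group mean was 0.24 for siKDM1A b and -0.16 for control a. Probe sets of 1 gene share its RNA, so these are not 14 independent values. The genes were also chosen by their values on these same arrays, and that choice can favour a wide spread and an extreme array. The comparisons with all probe sets are therefore a description. Counted once per gene, on the most changed probe set, siKDM1A b was highest in 6 of 7 genes and control a lowest in 4 of 7.

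These 2 arrays also decided which genes were near the threshold. Without siKDM1A b, 6 of 14 probe sets were over 3-fold instead of 9, and without control a also 6; without any other array the number stayed at 9. The probe sets that fell below 3-fold without siKDM1A b were those of BBOX1 (2.97-fold) and OLR1 (2.83-fold), and GLIPR1 226142_at. Without control a they were GLIPR1 226142_at (2.82-fold), ADGRF4 237690_at (just under 3-fold) and again that of OLR1 (log2 difference 1.57). ANKRD22, GASK1B, TCIM and GLIPR1 204222_s_at kept a probe set over 3-fold whichever array was left out, with lowest folds of 8.63, 6.45, 6.12 and 3.41. Among the 14, GLIPR1 226142_at (3.20-fold) was the nearest above the threshold and GLIPR1 226136_at (2.56-fold) the nearest below it. Over the whole array AKR1C3 (3.003-fold), ANXA10 (3.035-fold) and PTGS2 (3.067-fold) lay just above 3-fold, and FABP4 (2.983-fold), MMP16 (2.977-fold) and BMPER (2.951-fold) just below.

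Genes with the most similar change were found by the Euclidean distance over the 6 arrays, after subtraction of each probe set's control mean. The measure uses the values that chose the genes, so it is a description. The genes nearest to ANKRD22 were IL1A, which encodes interleukin-1 alpha (distance 0.67, log2 difference 3.06), and SPP1, which encodes osteopontin (1.02 and 2.81). Nearest to GASK1B were TCIM (0.52) and the anti-apoptotic BCL2A1 (0.53, difference 2.71). Nearest to TCIM were the chemokine gene CXCL2 (0.40, difference 2.63) and SPP1 (0.42). GLIPR1 and BBOX1 were among each other's nearest genes (0.39), beside SERPIND1, which encodes heparin cofactor II (0.29 from GLIPR1), and IL1B, which encodes interleukin-1 beta (0.43 from BBOX1). Nearest to OLR1 were the hyaluronidase-family gene HYAL4 (0.36) and the metalloprotease gene ADAM28 (0.38), and nearest to ADGRF4 the AP-1 subunit gene JUN and the prostaglandin synthase gene PTGS2 (both 0.32). In log2 difference the JUN probe set (1.75) equalled ADGRF4 237690_at, and that of PTGS2 (1.62) lay below it. The brighter ADGRF4 probe set, 1553031_at, differed by only 0.55.

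Whether the rise extended along the chromosome was examined in the 3 nearest measured protein-coding genes on each side of each gene, 42 in all, which the choice of the 7 did not use. Each was taken on its brightest probe set and tested with limma, adjusted over all probe sets. Of the 42 neighbours, 5 (11.9%) were higher and 2 (4.76%) lower in siKDM1A, against 3.45% higher and 5.46% lower of all 19775 genes. The number that passed fell from 7 to 5 without siKDM1A c, to 4 without siKDM1A a or siKDM1A b, to 3 without control a, and to 2 without control b or control c. The median log2 difference was 0.10 for the neighbours and 0.0069 for all genes. None of the 18 neighbours of TCIM, GLIPR1 and OLR1 passed, with differences between -0.15 and 0.38.

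The neighbour with the largest change was FIBIN, which encodes a secreted protein and is the nearest gene to BBOX1 on 1 side. FIBIN read 6.85, 7.11 and 7.05 in the controls and 8.51, 8.67 and 8.37 in siKDM1A. The groups did not overlap, and the difference was 1.51 or 2.85-fold (limma adjusted p = 0.00016), and the second probe set gave 1.26 (limma adjusted p = 0.00024). It passed with any 1 array left out (adjusted p between 0.00062 and 0.0017). The gene on the other side of BBOX1, LGR4, had a difference of 0.11 (limma adjusted p = 0.58), and BDNF, 3 genes away, which encodes a neurotrophin, a difference of 0.57 (limma adjusted p = 0.030). BDNF lost its call without siKDM1A a, siKDM1A b or any of the controls, with adjusted p up to 0.10, and its other probe set gave 0.20 (adjusted p = 0.39). LIN7C, between them, was lower by this test (difference -0.44, limma adjusted p = 0.033).

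The measured genes next to ADGRF4, CD2AP on 1 side and OPN5 on the other, differed by 0.02 and 0.17 and did not pass (limma adjusted p = 0.97 and 0.37). The death receptor gene TNFRSF21, 2nd on the side of CD2AP, read 10.71, 10.59 and 10.64 in the controls and 11.20, 11.27 and 11.40 in siKDM1A. The groups did not overlap, with a difference of 0.64 (limma adjusted p = 0.0037), and the call held with any 1 array left out (up to 0.025). The second probe set of TNFRSF21 gave 0.69 (limma adjusted p = 0.029). MMUT, the mitochondrial methylmalonyl-CoA mutase gene and 3rd on the side of OPN5, was lower (difference -0.50, limma adjusted p = 0.016). That call was lost without control b or control c (up to 0.087), and the second probe set of MMUT gave -0.45 (limma adjusted p = 0.056). TMEM144, next to GASK1B, differed by 0.52 (limma adjusted p = 0.024) and lost its call without siKDM1A b, siKDM1A c or any control (up to 0.096). The other 3 probe sets of TMEM144 gave 0.02, 0.04 and 0.36, and none passed (limma adjusted p = 0.96, 0.89 and 0.30). STAMBPL1, next to ANKRD22, differed by 0.42 (limma adjusted p = 0.031) and lost its call without siKDM1A a, siKDM1A b or any control (up to 0.11). LIN7C, STAMBPL1, CD2AP and OPN5 fell outside the rule for named genes and were named after their values were seen. LIN7C lost its call without siKDM1A a, siKDM1A c or any control (up to 0.12).

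Some neighbours are relatives of the gene they lie beside, and they too were looked at after their values were seen. GLIPR1L1, a CAP gene close to GLIPR1, differed by 0.17 (limma adjusted p = 0.50). The lectin receptor genes CLEC7A, CLEC1A, CLEC12B and KLRD1 near OLR1 differed by 0.06, 0.12, 0.04 and 0.10 (limma adjusted p = 0.73, 0.62, 0.86 and 0.65). ADGRF1, an adhesion receptor gene near ADGRF4, differed by 0.15 (limma adjusted p = 0.70). None of these relatives passed, at control levels between 2.63 and 5.16.

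**Figure D3:**
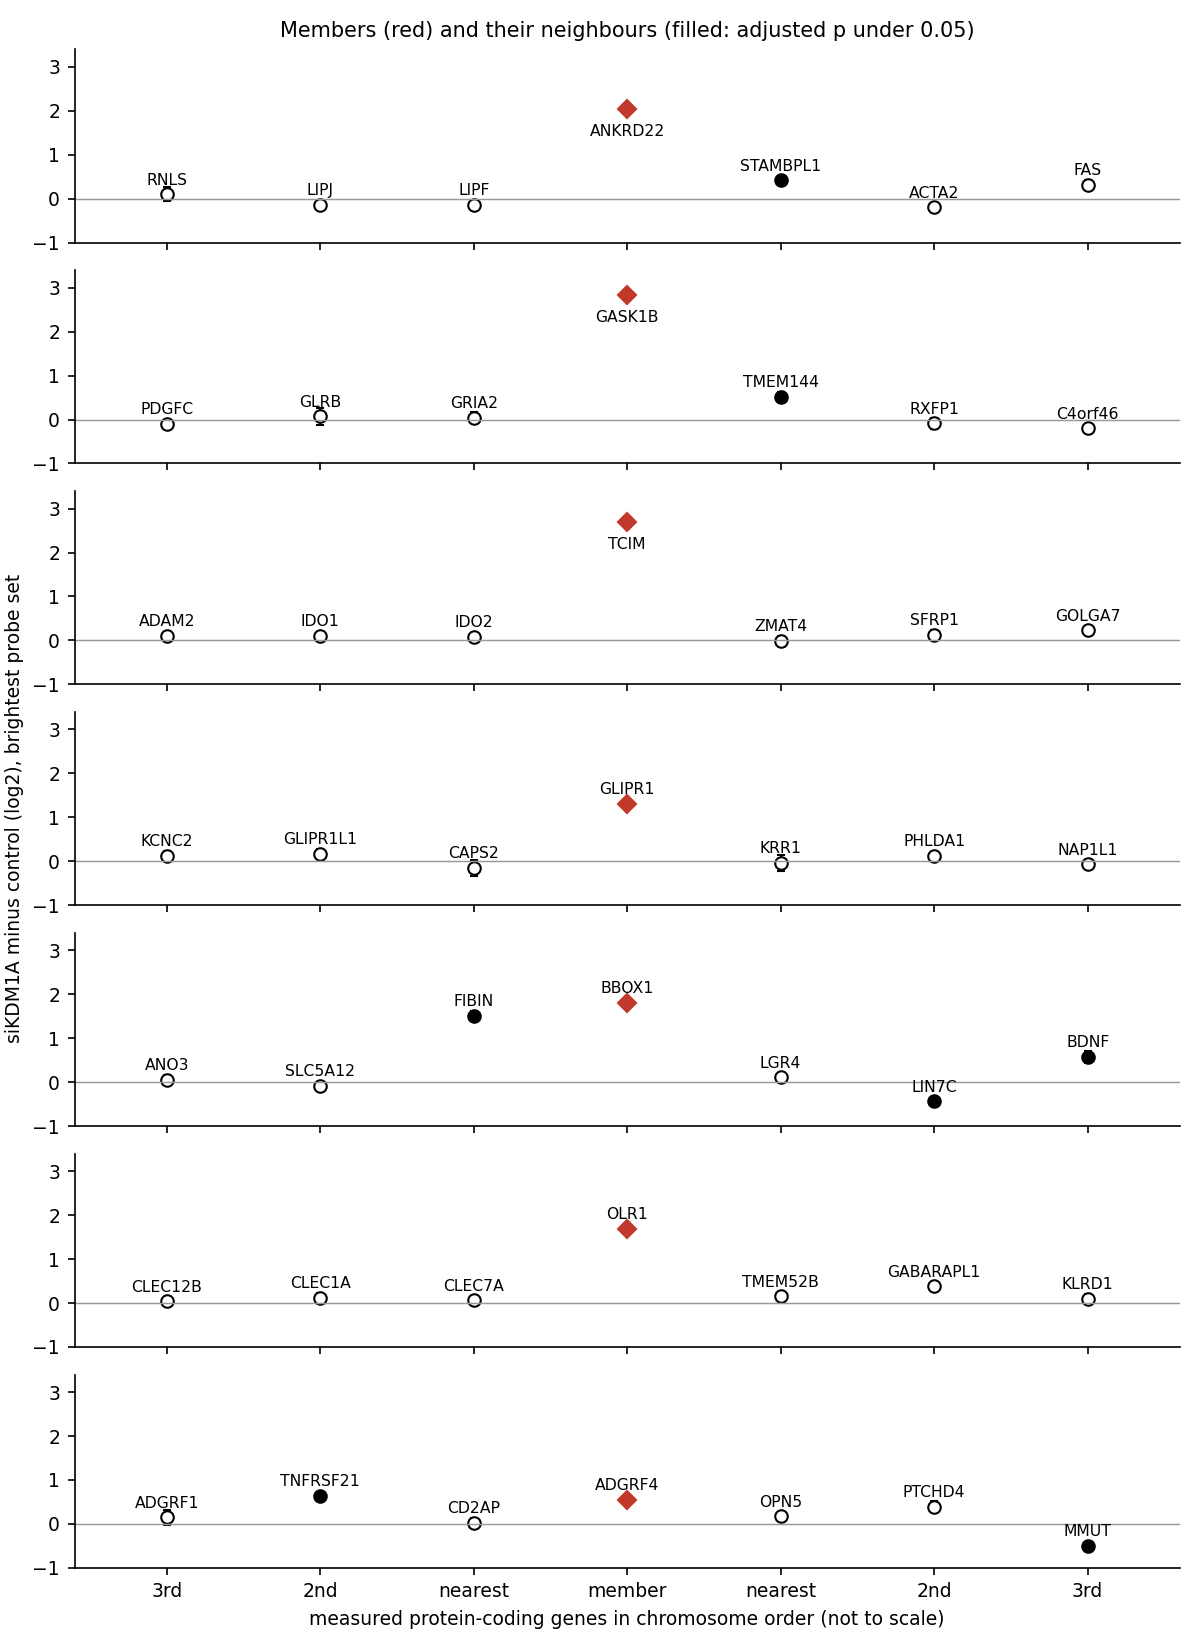
The siKDM1A minus control difference (log2) of the brightest probe set of each of the 7 genes (red diamonds) and of the 3 nearest measured protein-coding genes on each side (circles, with ± 1 SE; filled where limma's adjusted p was under 0.05). Genes are in chromosome order and distances are not to scale; FIBIN beside BBOX1 is the only neighbour above 1, and most neighbours lie near 0.

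The families and pathways of the 7 genes were then examined by 8 gene lists with 167 measured genes, none of them one of the 7. Of these, 11 (6.59%) were higher and 7 (4.19%) lower by limma, against the 3.45% and 5.46% of all genes, and the median log2 difference was 0.03. The number of list genes that passed, 18 with all arrays, was 15 without siKDM1A c, 11 without siKDM1A b, 10 without siKDM1A a or control a, 7 without control b and 6 without control c. On the brightest probe set, 1 list gene was more than 2-fold higher and 1 more than 2-fold lower. The higher one, ANKRD1 (difference 1.12), named after its value was seen, did not pass (limma adjusted p = 0.39), with an SD of 1.52 among the siKDM1A arrays, and the lower one was SCARA3.

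Of the 5 genes listed as relatives of GASK1B, none passed (median 0.18), and the nearest paralogue, GASK1A, differed by -0.03 (limma adjusted p = 0.95). FJX1 had the largest difference of them, 0.35 (limma adjusted p = 0.051). Of 9 measured CAP genes, related to GLIPR1, 1 was higher (median 0.15). That gene was CRISPLD1, with 0.37 (limma adjusted p = 0.044), a call lost without siKDM1A a, siKDM1A b or any control (up to 0.14).

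Adhesion receptor genes, related to ADGRF4, were higher in 2 of 29 and lower in none (median 0.11). ADGRG6, a receptor of Schwann cell myelination, differed by 0.41 (limma adjusted p = 0.030; lost without siKDM1A b, siKDM1A c or any control, up to 0.12), but its other probe sets gave -0.07 and 0.06 and did not pass (limma adjusted p = 0.73 and 0.90). ADGRE1, known as a macrophage receptor gene, differed by 0.40 (limma adjusted p = 0.048) and lost its call when any 1 array was left out (up to 0.20). Its signal of 4.33, 4.26 and 4.06 in the controls was below their medians.

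Scavenger receptors, related to OLR1 by function, were higher in none and lower in 1 of 15 (median 0.024). That 1 was SCARA3, described as a protector against oxidative stress, which read 8.67, 8.57 and 8.81 in the controls and 7.55, 7.22 and 7.07 in siKDM1A. The groups did not overlap, and the difference was -1.40 (limma adjusted p = 0.00052; held with any 1 array left out, up to 0.0046). Other probe sets of SCARA3 gave -1.23 (limma adjusted p = 0.00034) and -0.51 (0.086). The macrophage scavenger receptor genes MSR1 and CD36 differed by 0.02 and 0.09 and did not pass (limma adjusted p = 0.96 and 0.66). Of 20 C-type lectin-like receptor genes, 1 was higher and 1 lower (median 0.065). CLEC2B, a ligand of natural killer cells, differed by 0.55 (limma adjusted p = 0.0081; up to 0.045 with 1 array left out), and CLEC2D by -0.35 (limma adjusted p = 0.034), lost without siKDM1A a, siKDM1A b or any control (up to 0.13). The other probe sets of CLEC2D did not pass, nor did the second probe set of CLEC2B (0.33, limma adjusted p = 0.31).

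In the carnitine list, related to BBOX1, none of 14 genes passed on its brightest probe set, with differences between -0.35 and 0.42. On dimmer probe sets CROT, which encodes a carnitine acyltransferase of peroxisomes, was lower on 2 of 3 (-0.44 and -0.46, limma adjusted p = 0.038 and 0.046) and CPT1A on 1 of 4 (-0.53, limma adjusted p = 0.047). The genes of the earlier steps of carnitine synthesis, TMLHE and ALDH9A1, differed by 0.09 and -0.06 (limma adjusted p = 0.75 and 0.80). The carnitine importer gene SLC22A5 differed by 0.00, and CPT1A, which commits fatty acids to mitochondrial import, by -0.22 on the brightest of its probe sets (limma adjusted p = 0.18). None of these 14 genes came near the difference of BBOX1, 1.80, but BBOX1 was chosen for its rise and they were not.

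Among 16 beta-catenin partners and target genes, related to TCIM, 2 were higher and 2 lower (median -0.14). LGR5, a stem cell receptor and widely used target gene, differed by -0.91 (limma adjusted p = 0.0014; up to 0.012 with 1 array left out), but its second probe set gave -0.12 (limma adjusted p = 0.61). TCF7L1 differed by -0.51 (limma adjusted p = 0.033; lost without siKDM1A a, siKDM1A b or any control, up to 0.10). The ubiquitin ligase gene RNF43 differed by 0.50 (limma adjusted p = 0.013; lost without control b or control c, up to 0.068) and the secreted antagonist gene DKK1 by 0.37 (limma adjusted p = 0.031; lost without siKDM1A a, siKDM1A b or any control, up to 0.14). CBY1, which encodes Chibby, differed by -0.24 (limma adjusted p = 0.24), CTNNB1 by 0.00 and AXIN2 by 0.09 (limma adjusted p = 0.69).

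Of 59 genes with an ANKRD symbol, a list built on the name alone in which 11 symbols stand for pseudogenes or for divergent or intronic transcripts, 5 were higher and 3 lower (median 0.0038). The called genes with the largest change were ANKRD29 (0.95, limma adjusted p = 0.0055), ANKRD26 (-0.68, limma adjusted p = 0.010), ANKRD34A (0.63, limma adjusted p = 0.0080) and ANKRD46 (0.63, limma adjusted p = 0.0089). ANKRD26 lost its call without control c (adjusted p = 0.050), and the other 3 held with any 1 array left out. Second probe sets gave 0.35 for ANKRD29 (limma adjusted p = 0.033) and -0.30 for ANKRD26 (limma adjusted p = 0.15). On a dimmer probe set only, ANKRD10 was lower (-0.39, limma adjusted p = 0.048) and ANKRD11 higher (0.37, limma adjusted p = 0.028).

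**Figure D4:**
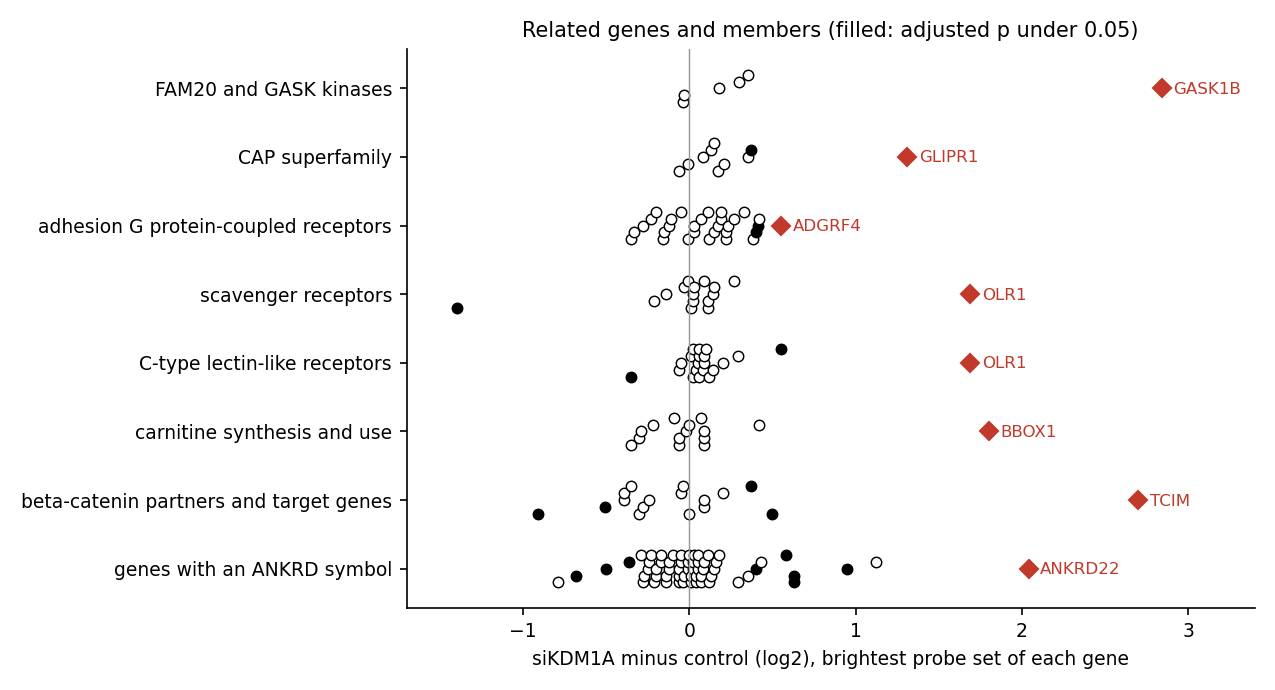
The siKDM1A minus control difference (log2) of the brightest probe set of each gene in 8 lists of related genes (circles; filled where limma's adjusted p was under 0.05), with the member the list relates to (red diamonds, chosen for their rise and not tested). The vertical positions within a list only separate the points; each red diamond lies to the right of the circles of its list, by least for ADGRF4 among the adhesion receptor genes.

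Several of the 7 genes are better known from myeloid, endothelial or epithelial cells, so markers of those cells were checked on the same arrays. Of 7 myeloid markers (PTPRC, CD14, LYZ and others), none passed, their mean control levels were between 3.34 and 5.71, and 5 lay below the median of every control array. Their summed log2 level was 31.5 to 32.0 in the controls and 31.8 to 32.6 in siKDM1A. Of 5 endothelial markers, PECAM1 passed on its brightest probe set with a difference of 0.35 (limma adjusted p = 0.035), a call lost when any 1 array was left out (up to 0.13), and not on its 4 other probe sets. CDH5, with a mean control level of 7.58, differed by -0.34, and VWF, KDR and TEK by 0.08, 0.26 and 0.08, and none of them passed. Summed levels of the endothelial list were 28.2 to 29.1 in the controls and 28.9 to 29.3 in siKDM1A. Of 5 epithelial markers, KRT5 was lower (-0.39, limma adjusted p = 0.038), a call lost without siKDM1A a, siKDM1A b or any control (up to 0.13). EPCAM (0.23), CDH1 (0.12), KRT8 (0.35) and KRT18 (0.18) differed in the other direction and did not pass. Mean control levels were 10.61 for KRT8, 11.94 for KRT18 and 10.87 for KRT5, but 5.83 for CDH1 and 2.98 for EPCAM. The sums of the epithelial list were 42.0 to 42.4 in the controls and 42.4 to 42.9 in siKDM1A. The part of other cell types in the rise of the 7 genes was not tested further.

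Of 10 neural and medulloblastoma markers, the neuronal gene MAP2 was higher (1.12, limma adjusted p = 0.00030) and held with any 1 array left out (up to 0.0026), but its second probe set gave 0.45 and did not pass (limma adjusted p = 0.071). ZIC1 (-0.39, limma adjusted p = 0.026), ZIC2 (-0.40, limma adjusted p = 0.042) and SOX2 (-0.43, limma adjusted p = 0.048) were lower. ZIC2 lost its call with any 1 array left out, ZIC1 with any but siKDM1A c and SOX2 with any but siKDM1A a (adjusted p up to 0.14, 0.10 and 0.19). The other probe sets of ZIC1 (0.05 and 0.04) and of SOX2 (-0.49, -0.23 and 0.08) did not pass. The medulloblastoma transcription factor genes ATOH1 and OTX2 had mean control levels of 4.96 and 2.92, below the array medians. The transcription factor genes SOX2, ZIC2, ZIC1 and BARHL1 had mean control levels of 10.66, 8.39, 7.03 and 6.42, above the array medians. The intermediate filament gene VIM had 13.03. Summed levels of the list were 69.6 to 70.5 in the controls and 69.9 to 70.4 in siKDM1A.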

How the data were processed

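RNA of 3 siKDM1A and 3 control cultures of ONS-76 was hybridized to 1 array each. For each array the authors deposited 54675 log2 values, normalized with RMA in Partek (the version was not stated in the labels or methods). RMA gives the arrays a common distribution, so a shift shared by most genes would be removed. After 62 control probe sets were left out, 54613 remained for limma 3.58.1 in R 4.3.3 (two-sided, Benjamini-Hochberg adjusted over all probe sets, threshold 0.05), with no test of the 7 genes themselves. The script was checked on simulated data. Platform annotation named 1 gene for 41091 probe sets, several for 1801 and none for 11721. In the counts of neighbours, list genes and all genes, a gene was represented by its brightest probe set. Genes of similar change and genes next to 3-fold were taken from any probe set that named 1 gene. Neighbour order and promoter windows came from RefSeq (GRCh38.p14).

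The 7 genes and all lists were chosen with earlier results of these data known. Named genes were the 7, the 5 called neighbours with the largest change, up to 4 called genes per list, the 2 genes of most similar change, those next to 3-fold, and KDM1A; others are marked in the text or illustrate a list. Alternatives were other scalings, a filter on dim probe sets, another prior, the replicate letter as a block, the methods' 1-way ANOVA, left-out arrays, and other thresholds, probe set rules and neighbour numbers.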

Additional observations from a re-analysis of the deposited data

How the results depend on the processing

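The log2 differences of the 7 genes on their most changed and brightest probe sets, 10 distinct probe sets, moved by at most 0.06 under median centring and cyclic loess. The replicate block returns the same differences by construction in this balanced design, and omission of 1 of 3 arrays can move a mean only by a part of its SD, so neither tests their stability. The number of their probe sets over the threshold was 9 at 3-fold, 12 at 2-fold and 4 at 4-fold, 7 without the _x_at and _s_at probe sets, and 6 to 9 with 1 array left out. Omission of 1 array gave 609 to 1103 probe sets called higher (1193 with all arrays), 694 to 1563 lower (2037), 2 to 5 neighbours (7) and 6 to 15 list genes (18), with fewer arrays in each fit. The methods' 1-way ANOVA, Benjamini-Hochberg adjusted, called 275 higher, 401 lower, 1 neighbour and 2 list genes; it takes each probe set's spread from that probe set alone. By that test 1 of the 7 neighbours called by limma passed, FIBIN (adjusted p = 0.036), as did 1 of the 18 list genes, CLEC2D (0.037), and the markers MAP2 and PECAM1 (both 0.032). The calls that held with any 1 array left out but did not pass there were TNFRSF21 (0.052), SCARA3 (0.057), LGR5 (0.059), CLEC2B (0.070), ANKRD34A (0.097), ANKRD46 (0.10) and ANKRD29 (0.13). Median centring gave 1048 higher and 2443 lower, and cyclic loess 1379 and 1675. With 5 neighbours a side, 10 of 70 passed.

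Whether the replicate letters pair the arrays could not be decided from these values. Same-letter deviations from the group means correlated at 0.111 (a), 0.23 (b) and -0.135 (c), and those of unlike letters at -0.317 to 0.181. The replicate block gave 1080 probe sets higher, 1639 lower, 6 neighbours and 11 list genes. Signals near background limit what can be said of GASK1B, OLR1, BBOX1 and ADGRF4 in the controls.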
